A study of Mus musculus with 10 samples.

Results

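Genes whose symbol begins with Kcn, which encode potassium channels and the subunits that go with them, were compared between 3 regions of the mouse heart: RV (right ventricle), LV (left ventricle) and ventricular septum. A probe belonged to the family when its RefSeq accession mapped to a mouse symbol starting with Kcn, which gave 156 probes of 98 genes among the 22907 named genes on the array. A gene was kept when a probe was well above background, by the scanner software's own flag, on every array of at least 1 region. The rule kept 51 Kcn genes (52.0%), among 14646 genes kept in all.

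Total RNA came from pieces of heart of C57BL/6N mice, 4 of the RV, 3 of the LV and 3 of the septum. Each was hybridised to a single-colour array that reports brightness per probe. The labels name the strain and the region and give no genotype, treatment, age or sex, and the series' design text says that different individuals were used for each experiment, without saying whether RV, LV and septum of the same number came from 1 heart. The arrays lay on 2 slides, with replicates 1 and 2 on slide 1 and the others on slide 2.

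Potassium channels let potassium leave the cell and so end the action potential and hold the resting potential of heart muscle. Kv channels open on depolarisation, inward rectifiers (Kir) set the resting potential, 2-pore-domain (K2P) channels carry background current, and calcium- or sodium-activated channels couple potassium flux to the ions inside the cell. In the mouse ventricle, repolarisation rests mainly on fast transient outward current through Kv4 channels, and this current is known to differ between parts of the ventricular wall.

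All levels below are log2 signal from which the 75th percentile of that array was subtracted, so 0 is that percentile and a difference of 1 is a doubling. They compare arrays for 1 probe and not 1 probe with another. In pieces of tissue, fewer cells of a type and less RNA per cell cannot be told apart. The labelled tissue held heart muscle throughout: all 8 cardiomyocyte markers were kept, none passed the test between regions, and their summed level lay between 11.69 and 11.80 in the RV, 11.73 and 11.93 in the LV and 11.64 and 11.90 in the septum. That sum follows the brightest markers. The median difference of the 8 in RV was -0.09 from LV and -0.06 from septum, and that of the dimmer Ttn was -0.41 ± 0.11 SE and -0.37 ± 0.11 SE.

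5 Kcn genes passed an adjusted p below 0.05 over the 3 regions with limma's moderated F test, which is 9.80% of the 51 kept genes, where 3.67% of all 14646 genes passed. The same 5 genes, and no other Kcn gene, passed in RV against LV and in RV against septum, comparisons that share the 4 RV arrays. Kcnd2, Kcnip3 and Kcnt2 were higher in the RV, and Kcnj4 and Kcnk3 were lower there. The 3 higher genes make 5.88% of the kept Kcn genes, against a background of 3.14% of all genes higher in RV against LV and 1.68% in RV against septum. The 2 lower genes make 3.92%, against 1.84% and 1.02%.

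The RefSeq promoter windows of 3 of these genes are printed because they belong to the genes that moved and show what sequence lies before each start. The windows are the 250 bases before the annotated start, 5′ to 3′ on the gene's strand, build GRCm38.p6. They are Kcnd2 on the plus strand at chr6:21215096-21215345, Kcnj4 on the minus strand at chr15:79505242-79505491, and Kcnt2 on the plus strand at chr1:140245468-140245717. Capitals mark the matches to GGGCGG, a GC box, on either strand.
Kcnd2: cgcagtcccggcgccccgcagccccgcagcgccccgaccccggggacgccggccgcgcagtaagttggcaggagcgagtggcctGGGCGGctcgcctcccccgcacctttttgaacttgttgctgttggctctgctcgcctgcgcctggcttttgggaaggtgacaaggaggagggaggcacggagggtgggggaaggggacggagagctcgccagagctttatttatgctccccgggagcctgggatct
Kcnj4: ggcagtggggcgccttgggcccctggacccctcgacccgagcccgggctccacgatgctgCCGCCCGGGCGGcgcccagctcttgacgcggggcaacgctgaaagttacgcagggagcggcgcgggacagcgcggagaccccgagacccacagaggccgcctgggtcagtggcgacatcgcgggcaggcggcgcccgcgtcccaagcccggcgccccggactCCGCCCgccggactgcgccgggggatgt
Kcnt2: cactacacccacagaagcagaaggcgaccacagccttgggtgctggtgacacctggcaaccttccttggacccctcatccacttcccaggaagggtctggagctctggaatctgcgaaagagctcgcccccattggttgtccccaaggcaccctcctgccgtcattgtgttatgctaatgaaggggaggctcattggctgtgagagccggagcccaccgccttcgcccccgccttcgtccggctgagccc
The other motifs searched on both strands were the Iroquois site ACANNTGT, the E-box CANNTG that every Iroquois site contains, TATAAA of the TATA box, CATTCC of the MCAT element bound by TEAD factors, and GATAAG bound by GATA factors. Kcnd2 held 1 GC box and none of the others. Kcnj4 held 3 GC boxes, of which 2 lie end to end, and none of the others. Kcnt2 held 1 E-box, left in lower case, and none of the others. Of all 32841 windows in the table, 32.7% held GGGCGG, 66.2% CANNTG, 6.31% ACANNTGT, 12.4% TATAAA, 12.6% CATTCC and 6.55% GATAAG. Bases G and C made up 68.8% of the Kcnd2 window, 77.2% of the Kcnj4 window and 61.6% of the Kcnt2 window, where the median over all windows was 52.4% and the upper quartile began at 61.2%. Kcnip3 has several annotated starts and is not printed, and Kcnk3 is named only.

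Kcnd2, which encodes the Kv4.2 pore subunit of fast transient outward current, had a separate level in each region. It lay at 2.05, 1.84, 2.07 and 1.99 on RV arrays 1 to 4, at 1.48, 1.34 and 1.38 on the LV arrays, and at 0.73, 0.72 and 0.57 on the septum arrays. Every RV array was above every LV array, and every LV array above every septum array. Kcnd2 was 1.51-fold higher in RV than in LV (0.59 ± 0.08 SE on the log2 scale, adjusted p = 0.00664) and 2.49-fold higher in RV than in septum (1.32 ± 0.08 SE, adjusted p = 0.000282). Among all 14646 genes its p ranked 6 over the 3 regions, 123 in RV against LV and 3 in RV against septum.

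From LV to septum, Kcnd2 differed by -0.73 ± 0.09 SE on the log2 scale, or 1.65-fold lower in the septum, which did not pass after adjustment with limma (adjusted p = 0.128). By p it ranked 3 among the 14646 genes in that comparison, in which no gene passed. It passed in 3 of 15 alternatives: with the slide as a block (adjusted p = 0.0411), with a random block for replicate number (0.0088) and with a trended, robust spread (0.0477). It did not with replicate number as a fixed block (adjusted p = 0.13), and the adjusted p ran up to 0.899 in the others. Those 3 fits called 0.0751%, 0.335% and 0.0205% of all genes in that comparison. The difference was -0.69 within slide 1 and -0.81 within slide 2.

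The other Kv4 genes and Kcnip2 did not pass. Kcnd1, for Kv4.1, differed by -0.14 ± 0.09 SE from LV and from septum alike. Kcnd3, which encodes Kv4.3, had means of 1.70 ± 0.09 (SD, n = 4) in RV, 1.67 ± 0.05 (n = 3) in LV and 1.69 ± 0.09 (n = 3) in septum, with an adjusted p of 0.998 over the 3 regions by limma. Its difference between RV and septum was 0.01 ± 0.08 SE, against 1.32 ± 0.08 SE for Kcnd2. Kcnip2 encodes KChIP2, the main cytoplasmic partner of Kv4 channels in the ventricle. It lay at 0.41, 0.51, 0.15 and 0.63 in RV, at 0.64, 0.80 and 0.81 in LV and at 0.32, 0.59 and 0.59 in septum. The RV arrays were all below the LV arrays, but the difference of -0.32 ± 0.12 SE had an adjusted p of 0.186, and RV and septum overlapped. With a random block for replicate number it was -0.36 and passed (adjusted p = 0.0315). With replicate number as a fixed block (adjusted p = 0.0576) or the slide as a block (0.101) it did not pass.

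Kcnip3 encodes KChIP3, a calcium-binding protein that associates with Kv4 channels and is also known as the transcriptional repressor DREAM. It lay at 0.64, 0.45, 0.49 and 0.53 in RV, at 0.24, -0.05 and 0.10 in LV and at 0.07, -0.09 and 0.03 in septum. The RV arrays were above all others, while LV and septum overlapped. Its level was 1.35-fold higher in RV than in LV (0.43 ± 0.09 SE, adjusted p = 0.0319) and 1.44-fold higher than in septum (0.53 ± 0.09 SE, adjusted p = 0.0226). The call against LV was lost without any 1 of the RV replicates or LV replicate 2 or 3, and that against septum without RV replicate 1, 2 or 4 or septum replicate 2 or 3. With 1 array left out the differences stayed between 0.36 and 0.50 and between 0.48 and 0.56. Both calls were also lost with scaling by the median, with no filter and with Tukey's test. The other probes of Kcnip3 were not well above background on every array of any region.

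Kcnt2 encodes a sodium-activated potassium channel, also called Slick. It lay at -1.73, -1.85, -1.66 and -1.53 in RV, at -2.48, -2.57 and -2.66 in LV and at -2.10, -2.52 and -2.39 in septum. No LV or septum array reached the lowest RV array. Kcnt2 was 1.84-fold higher in RV than in LV (0.88 ± 0.12 SE, adjusted p = 0.00535) and 1.56-fold higher than in septum (0.64 ± 0.12 SE, adjusted p = 0.0279). With normexp background correction the difference from LV was 0.54 and passed. The call against septum was lost without RV replicate 1, 3 or 4, LV replicate 2 or septum replicate 2 or 3, with differences between 0.55 and 0.76 over the 10 fits that left out 1 array.

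Kcnj4 encodes Kir2.3, an inward rectifier that carries part of the current holding the resting potential. It lay at -3.57, -3.40, -3.04 and -3.33 in RV, at -2.13, -2.32 and -1.92 in LV and at -2.39, -2.12 and -2.25 in septum. The highest RV array was below the lowest array of either other region. Kcnj4 was 2.32-fold lower in RV than in LV (-1.21 ± 0.14 SE, adjusted p = 0.00377) and 2.12-fold lower than in septum (-1.08 ± 0.14 SE, adjusted p = 0.00689). Its probe was dim but well above background on all 10 arrays. With normexp background correction the differences were -0.73 and -0.66, and both passed.

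Kcnk3 encodes TASK-1, a background channel closed by extracellular acid. It lay at 3.43, 3.70, 3.56 and 3.80 in RV, at 4.23, 4.40 and 4.40 in LV and at 4.03, 4.25 and 4.33 in septum. Every RV array was below every array of the other regions, and LV and septum overlapped. Kcnk3 was 1.65-fold lower in RV than in LV (-0.72 ± 0.11 SE, adjusted p = 0.01) and 1.49-fold lower than in septum (-0.58 ± 0.11 SE, adjusted p = 0.0352). The call against LV was lost without LV replicate 2 (adjusted p = 0.0519). The call against septum held when septum replicate 1 was left out and was lost when any other single array was left out, with differences between -0.66 and -0.51.

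**Figure D1:**
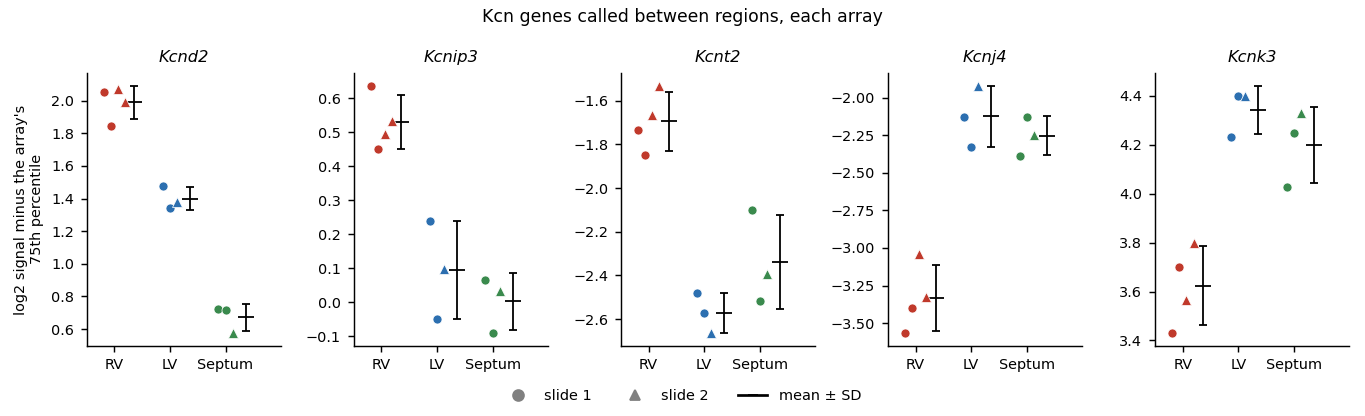
Each point is 1 array, with log2 signal minus the array's 75th percentile on the vertical axis (a separate scale for each gene), the region on the horizontal axis, circles for slide 1 and triangles for slide 2, and the mean ± SD beside each group (RV n = 4, LV n = 3, septum n = 3). The RV arrays of all 5 genes lie apart from the LV and septum arrays, and in Kcnd2 the septum, between 0.57 and 0.73, also lies below the LV.

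The RV arrays of the 5 genes overlapped no LV or septum array, which fixed the direction of their differences within each slide in advance. Only the size could vary. From LV, the RV differed within slide 1 and slide 2 by 0.54 and 0.65 in Kcnd2, by 0.45 and 0.42 in Kcnip3, by 0.74 and 1.07 in Kcnt2, by -1.26 and -1.27 in Kcnj4, and by -0.75 and -0.72 in Kcnk3. From septum, the values were 1.23 and 1.46 in Kcnd2, 0.56 and 0.48 in Kcnip3, 0.52 and 0.79 in Kcnt2, -1.23 and -0.94 in Kcnj4, and -0.57 and -0.65 in Kcnk3. Slide 1 holds 2 arrays of each region, and slide 2 holds 2 RV arrays with 1 LV and 1 septum array. Kcnd2 against septum passed within both slides and Kcnj4 passed within slide 1 in both comparisons, while the other values did not pass on these few arrays. With the slide as a block the 5 genes passed in both comparisons, with adjusted p between 0.000163 and 0.0134. That block raised the Kcn genes called to 13 of 51 in RV against LV (25.5%), 10 in RV against septum (19.6%) and 10 over the 3 regions (19.6%), and the share of all genes to 21.3%, 11.1% and 15.8%. The genes added in both pairs of regions were Kcnab1, Kcnj11, Kcnk13 and Kcnn2, those added only against LV were Kcna5, Kcng2, Kcnk6 and Kcnn4, and Kcnk2 was added only against septum.

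Blocking on replicate number also raised the counts. As a fixed block it called 12 Kcn genes in RV against LV (23.5%), 9 in RV against septum (17.6%) and 6 over the 3 regions (11.8%), where 17.9%, 8.7% and 10.9% of all genes passed. As a random block it called 15 (29.4%), 10 (19.6%) and 14 (27.5%), where 22.5%, 12.8% and 17.7% of all genes passed. Over the 3 regions the Kcn share in the fixed-block fit was near that of all genes.

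**Figure D2:**
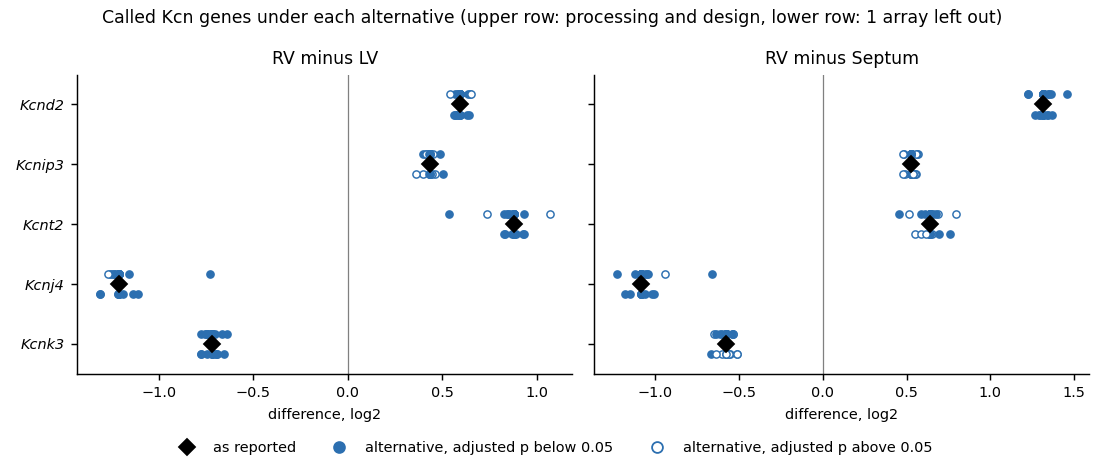
The horizontal axis is the difference between regions on the log2 scale for each called gene. The black diamond is the value as reported, the points above it are the 15 other ways of processing or modelling the arrays, the points below it leave out 1 of the 10 arrays, and open points have an adjusted p above 0.05. All points of a gene lie on the same side of 0, and Kcnd2 in RV against septum, between 1.23 and 1.46, has no open point. For fits on fewer arrays that side follows from the separation of the arrays.

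Other cell types also differed between the pieces, and their part in these differences was not tested. Over all genes 3.14% were called higher in RV against LV and 1.68% against septum, and 1.02% were called lower against septum. Of 7 fibroblast markers, 3 were higher in RV against LV and 1 against septum, and their summed level lay between 8.46 and 8.72 in RV, 7.85 and 8.13 in LV and 8.15 and 8.37 in septum. Of 7 adipocyte markers, 5 were higher against LV and 2 against septum, with a median difference of 3.29 from LV and 2.10 from septum and the largest in Adipoq (4.77 from LV). Their summed level, which follows the bright Fabp4, ran from 6.50 to 6.85 in RV, 6.71 to 7.02 in LV and 6.57 to 6.99 in septum. Of 6 mesothelium markers, 5 were higher against septum and 0 against LV, with a summed level of 2.91 to 4.45 in RV, 2.14 to 2.84 in LV and 0.49 to 1.60 in septum. Schwann cell and neuron markers had 1 gene higher in each comparison, with 6 of 9 kept and a summed level of 5.53 to 5.93 in RV, 5.30 to 6.04 in LV and 5.39 to 6.07 in septum. The conduction system gene Cntn2 was lower against septum, the only one of 6 such markers to pass, and their summed level lay between 2.15 and 2.70 in RV, 2.30 and 3.01 in LV and 2.78 and 3.33 in septum. No marker of endothelium, smooth muscle, atrial myocardium or leukocytes passed. Atrial markers were still uneven, with a summed level of 4.68 to 6.75 in RV, 6.68 to 7.23 in LV and 6.78 to 9.19 in septum. Of these, Nppa differed in RV by -2.21 ± 0.52 SE from LV (adjusted p = 0.0504 by limma) and -2.32 ± 0.52 SE from septum (0.0605).

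The separation of the arrays gave a wider view of the family. In 8 Kcn genes (15.7%) all RV arrays were above all LV arrays and in 10 (19.6%) all were below, where the background over all genes was 9.16% and 13.3%. Against septum the counts were 6 above (11.8%) and 5 below (9.80%), with a background of 6.94% and 9.04%. The median difference of the 51 genes was 0.04 from LV and -0.01 from septum, beside -0.05 and -0.04 over all genes.

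**Figure D3:**
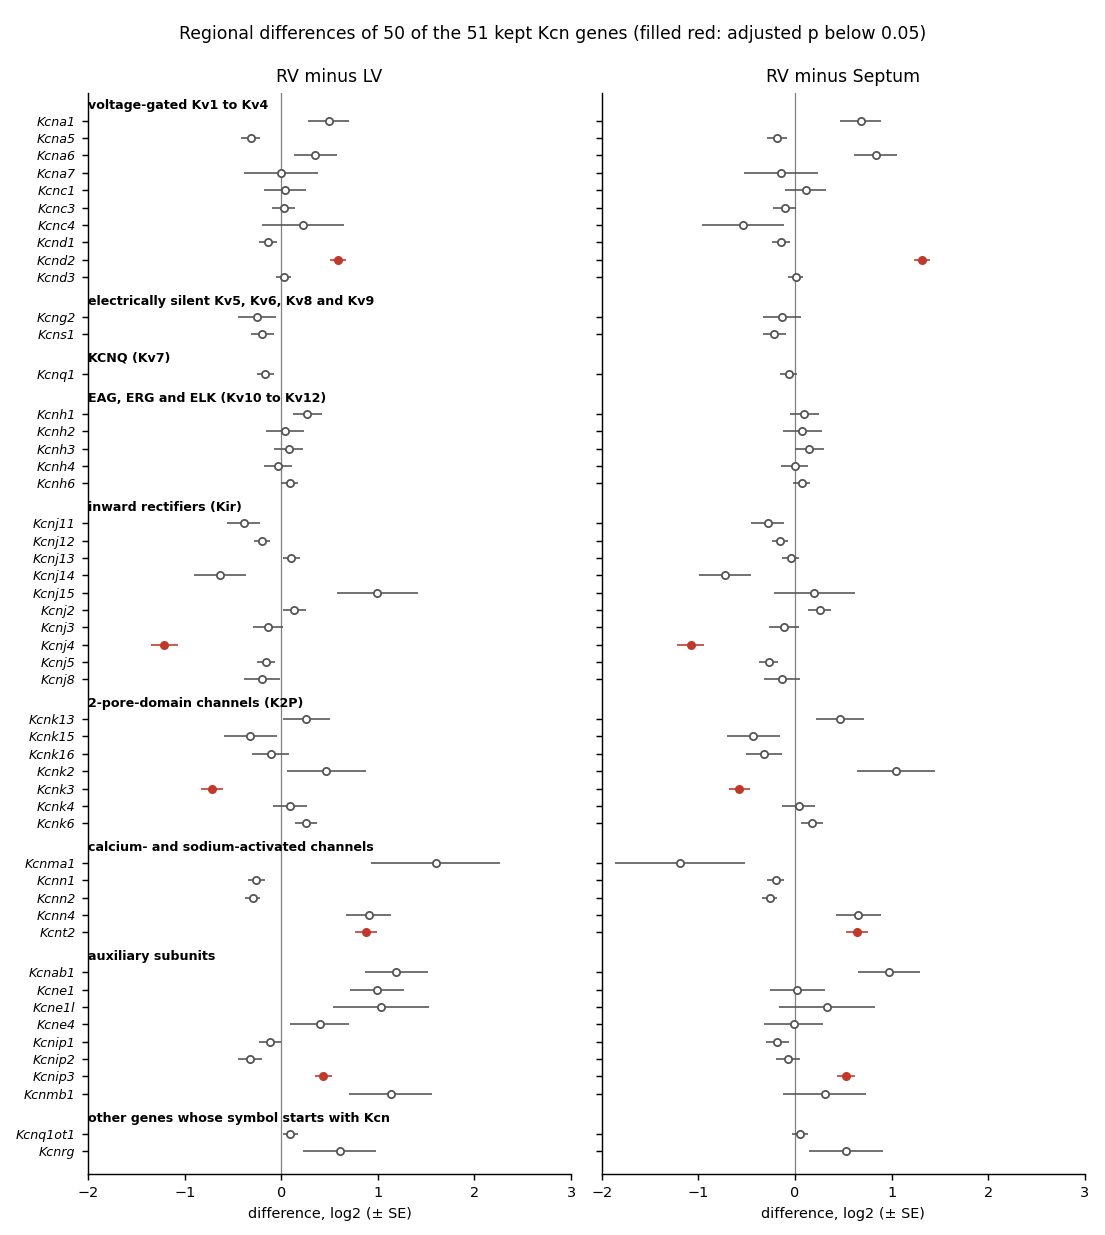
Differences of RV from LV (left) and from septum (right) for 50 of the 51 kept Kcn genes on the log2 scale with the SE of the fit, grouped by channel class, with filled red points for an adjusted p below 0.05. The 5 filled genes are the same in both panels. Open points include Kcnma1, which has wide bars and was well above background on no LV array.

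Among voltage-gated Kv1 to Kv4 genes, 11 of 17 were kept and only Kcnd2 passed. Kcna5, which encodes Kv1.5 of the ultrarapid delayed rectifier, lay at -0.66, -0.60, -0.68 and -0.61 in RV, at -0.46, -0.34 and -0.15 in LV and at -0.60, -0.48 and -0.27 in septum. Its RV arrays were below all LV arrays, with a difference of -0.32 ± 0.10 SE that did not pass (adjusted p = 0.121) and passed when replicate number was blocked (-0.33, adjusted p = 0.0481). Kcna6, a Kv1 pore gene better known from nerve, lay at -0.10, -0.27, 0.21 and 0.21 in RV and at -0.61, -1.11 and -0.74 in septum, without overlap. Its difference of 0.83 ± 0.23 SE had an adjusted p of 0.115, or 0.0473 with a random block for replicate number. With replicate number as a fixed block (adjusted p = 0.14) or the slide as a block (0.0642) it did not pass.

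The genes behind the delayed rectifiers of larger mammals did not pass. Kcnq1, the pore of the slow delayed rectifier and the only 1 of 5 KCNQ genes kept, had means of 2.71 ± 0.14 (SD, n = 4) in RV, 2.87 ± 0.03 (n = 3) in LV and 2.77 ± 0.06 (n = 3) in septum, and an adjusted p of 0.62 by limma. Kcnh2, which encodes the ERG pore of the rapid delayed rectifier, differed by 0.04 ± 0.20 SE from LV, and none of the 5 kept EAG, ERG and ELK genes of 8 passed. The electrically silent subunits had 2 of 10 genes kept and none called. Of these, Kcng2 differed by -0.25 ± 0.20 SE from LV (adjusted p = 0.545) and passed with replicate number as a fixed block (-0.33, adjusted p = 0.0408). With a random block for replicate number Kcng2 did not pass (adjusted p = 0.0954).

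Of 15 inward rectifier genes, 10 were kept and Kcnj4 alone passed. Kcnj2, which encodes Kir2.1, and Kcnj12, which encodes Kir2.2, are the other Kir2 genes of ventricular muscle. Kcnj2 differed by 0.13 ± 0.12 SE from LV and 0.26 ± 0.12 SE from septum, in the opposite direction to Kcnj4, and neither passed (adjusted p = 0.595 and 0.377). Kcnj12 lay at 2.43, 2.44, 2.51 and 2.69 in RV and at 2.74, 2.72 and 2.71 in LV. Its difference of -0.20 ± 0.08 SE had an adjusted p of 0.218, and 0.0312 with replicate number blocked, where it was -0.26.

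The pore genes of ATP-sensitive channels did not pass. Kcnj11, which encodes the Kir6.2 pore, lay at 1.09, 1.02, 1.52 and 1.56 in RV, at 1.58, 1.57 and 1.91 in LV and at 1.36, 1.57 and 1.81 in septum. The arrays of slide 2 were the higher ones in each region. Its difference from LV was -0.39 ± 0.17 SE (adjusted p = 0.247). With replicate number as a fixed block it was -0.48 (adjusted p = 0.0144) and -0.37 from septum (adjusted p = 0.0364). With a random block the difference from LV passed (adjusted p = 0.0167) and that from septum did not (0.0673). Kcnj8, which encodes the Kir6.1 pore found in vessels, differed by -0.20 ± 0.18 SE from LV.

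Of the channels opened by muscarinic receptors, Kcnj5, which encodes GIRK4, lay at 3.69, 3.58, 3.62 and 3.66 in RV and at 4.11, 3.82 and 3.81 in septum. The groups did not overlap, and the difference of -0.27 ± 0.10 SE had an adjusted p of 0.226, or 0.0499 with replicate number blocked. Kcnj3, its partner GIRK1, differed by -0.11 ± 0.16 SE from septum. Both genes were highest on septum replicate 1 (4.11 and 0.57), as was every kept atrial marker, and the part of atrial tissue was not tested. Kcnj14, which encodes Kir2.4, lay at -2.86, -3.01, -1.81 and -2.42 in RV and at -2.07, -1.81 and -1.51 in septum. Its differences of -0.63 ± 0.27 SE from LV and -0.73 ± 0.27 SE from septum did not pass (adjusted p = 0.228 and 0.257). Within slide 1 the difference from LV was -1.10 and passed (adjusted p = 0.0427), and within slide 2 it was -0.12.

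Among K2P genes, 7 of 14 were kept, and Kcnk3 was the 1 that passed. Kcnk2, which encodes the stretch-sensitive channel TREK-1, lay at -2.05, -2.87, -1.21 and -1.52 in RV, at -2.37, -2.75 and -2.02 in LV and at -3.27, -3.34 and -2.26 in septum. The arrays of slide 2 were the highest of each region, and the groups overlapped. The difference from septum was 1.04 ± 0.40 SE (adjusted p = 0.283), and 0.91 when replicate number was blocked (adjusted p = 0.0442). Kcnk13 was the other K2P gene that passed in that block fit against septum (0.59, adjusted p = 0.0392), named for that reason after its values were seen. With a random block for replicate number Kcnk13 did not pass.

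**Figure D4:**
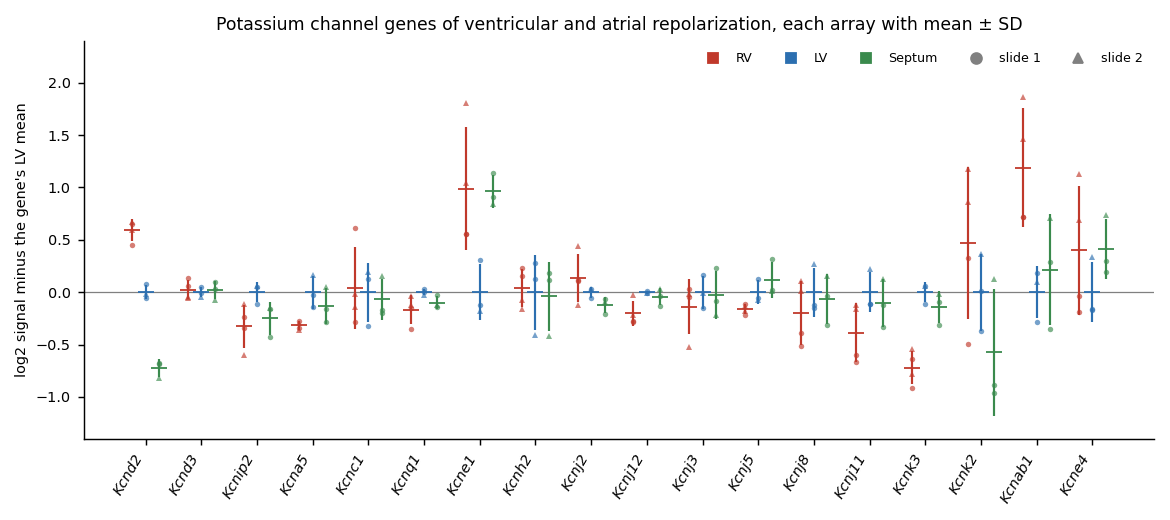
For 18 kept potassium channel genes linked to repolarisation of the heart, each point is 1 array (circle slide 1, triangle slide 2), drawn as its log2 signal minus the LV mean of that gene, with bars for the mean ± SD of RV (red), LV (blue) and septum (green). Kcnd2 and Kcnk3 are the 2 of these genes with an adjusted p below 0.05 over the 3 regions.

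Genes linked to repolarisation were listed together: 19 of 21 were kept, Kcna4 and Kcne3 being the others. Over all genes 3.67% passed over the 3 regions. Of the 19, Kcnd2 and Kcnk3 passed over the 3 regions, and 17 did not, the lowest adjusted p among these being 0.136. The differences of those 17 ran from -0.39 to 1.19 from LV and from -0.28 to 1.04 from septum. The largest of these, 1.19 ± 0.33 SE for Kcnab1 from LV, did not pass, so genes that did not pass may still differ by several standard errors. The median SE over the 51 genes was 0.16.

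Calcium- and sodium-activated channels had 5 of 8 genes kept, with Kcnt2 called. Kcnn2, which encodes the small-conductance channel SK2, lay at 1.22, 1.03, 1.07 and 1.06 in RV, at 1.44, 1.43 and 1.31 in LV and at 1.33, 1.40 and 1.35 in septum. All RV arrays were below all others, with differences of -0.30 ± 0.07 SE (adjusted p = 0.059) and -0.26 ± 0.07 SE (adjusted p = 0.127). When replicate number was blocked the difference from LV passed (-0.29, adjusted p = 0.0373). Kcnn1, for SK1, lay on the same side without passing (-0.26 ± 0.09 SE from LV, adjusted p = 0.133, and 0.0464 in the block fit), and Kcnn4, for the intermediate-conductance channel SK4, on the other (0.90 ± 0.23 SE, adjusted p = 0.0651, and 0.0192 with a random block for replicate number). Both were named after their values were seen because their RV arrays overlapped neither LV nor septum. With replicate number as a fixed block Kcnn4 did not pass.

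Kcnma1, the pore gene of the large-conductance channel BK, passed in no pair of regions. It lay at -4.18, -4.67, -2.48 and -3.20 in RV, at -5.16, -4.82 and -5.71 in LV and at -3.83, -1.02 and -2.46 in septum. The probe was well above background on 3 of 4 RV arrays, on no LV array and on all 3 septum arrays. With the LV level taken as a bound, the septum mean was at least 2.50-fold above LV. That bound was 1.53-fold without septum replicate 2 and 4.05-fold without septum replicate 1. The measured difference between septum and LV did not pass (adjusted p = 0.752 by limma). The gene was kept through its septum arrays alone. Bounds were computed only for genes flagged throughout one region and nowhere in another, so their direction follows from that choice. The high value of septum replicate 2 was not seen in the 4 other Kcnma1 probes on that array, at -6.21, -4.11, -6.06 and -5.89, none of which was well above background on every array of a region.

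Kcnmb1, the BK beta subunit of smooth muscle, and Kcnab1, a beta subunit of Kv1 channels, also had RV arrays above all LV arrays. Kcnmb1 lay at -3.05, -2.59, -1.31 and -1.95 in RV, at -3.54, -3.36 and -3.17 in LV and at -3.10, -1.66 and -2.83 in septum. RV minus LV was 1.13 ± 0.43 SE (adjusted p = 0.186). Septum arrays of Kcnmb1 were also all above the LV arrays, and RV and septum overlapped. Its probe was well above background on 2 of the 3 LV arrays. Kcnab1 lay at -1.45, -1.45, -0.31 and -0.71 in RV and at -1.98, -2.46 and -2.07 in LV, and RV minus LV was 1.19 ± 0.33 SE (adjusted p = 0.0783), which passed when replicate number was blocked (adjusted p = 0.0283). In both, RV replicates 3 and 4 were the highest of the 10 arrays but for septum replicate 2 in Kcnmb1.

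Some smooth-muscle markers were high on the same RV arrays: Cnn1, Myh11, Tagln and Cspg4, 4 of the list of 7, had their highest levels of the 10 arrays on RV replicates 3 and 4. Cnn1, calponin, lay at 2.57, 3.02, 5.12 and 4.38 in RV, at 1.77, 1.35 and 1.29 in LV and at 2.54, 0.95 and 2.86 in septum. Myh11, the smooth-muscle myosin heavy chain, was at 2.52 and 2.07 on RV replicates 3 and 4 and between -0.20 and 1.13 on the others. Acta2, smooth-muscle actin, was instead lowest of the 10 arrays on RV replicate 4 (6.29), Rgs5 was highest on LV replicate 3 (4.07), and Pdgfrb was at 2.53 and 2.48 on RV replicates 3 and 4 beside 2.50 on LV replicate 3. None of the 7 smooth muscle and pericyte markers passed, and their summed level ran from 7.17 to 8.01 in RV, 7.20 to 7.40 in LV and 7.20 to 7.45 in septum. Fibroblast collagens were also highest on RV replicates 3 and 4, where Col1a1 lay at 3.89 and 3.73, against 2.03 and 2.31 on RV replicates 1 and 2. The part of either cell type in the values of Kcnma1, Kcnmb1 and Kcnab1 was not tested.

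**Figure D5:**
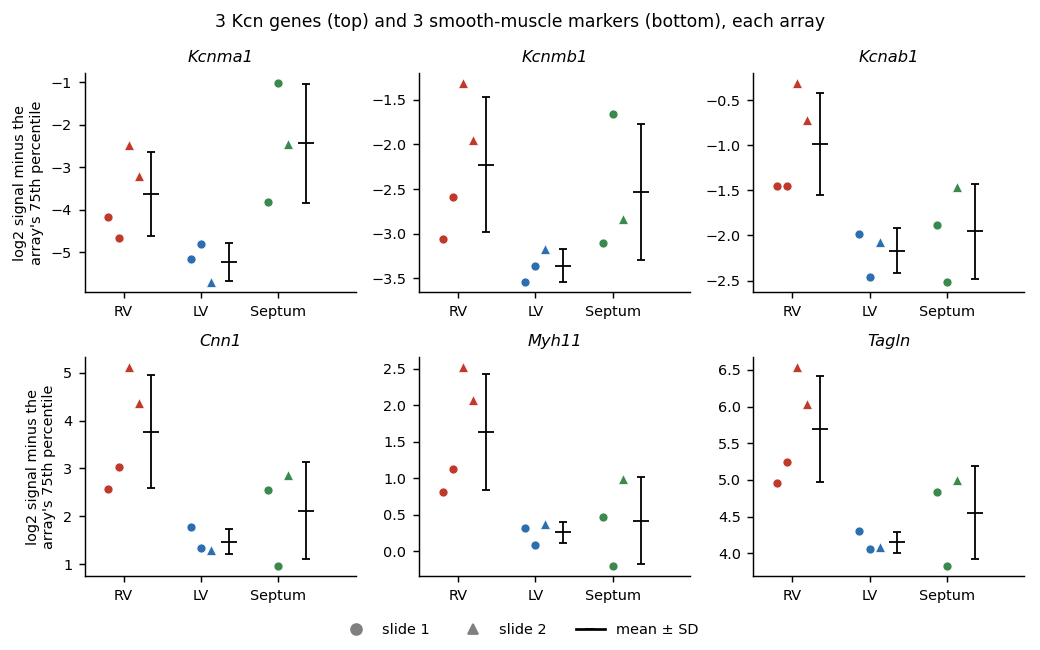
Each point is 1 array of Kcnma1, Kcnmb1 and Kcnab1 (top) and of the smooth-muscle markers Cnn1, Myh11 and Tagln (bottom), with log2 signal minus the array's 75th percentile on the vertical axis, circles for slide 1, triangles for slide 2 and the mean ± SD of each region. RV replicates 3 and 4 (red triangles) are the highest RV arrays in all 6 panels, and septum replicate 2 is high in Kcnma1 (-1.02) and the lowest array in Cnn1 (0.95).

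Of 16 auxiliary subunit genes, 8 were kept and Kcnip3 alone passed. Kcne1, the beta subunit that pairs with the pore of Kcnq1, was low in LV: it lay at 1.19, 1.19, 2.44 and 1.68 in RV, at 0.95, 0.51 and 0.46 in LV and at 1.78, 1.55 and 1.48 in septum. The LV arrays were below all others. RV was above LV by 0.99 ± 0.28 SE (adjusted p = 0.0881) and septum above LV by 0.96 ± 0.30 SE (adjusted p = 1), neither of which passed in limma. With a random block for replicate number the difference of RV from LV passed (adjusted p = 0.032). With replicate number as a fixed block (adjusted p = 0.101) or the slide as a block (0.0512) it did not pass. Kcne4 differed by 0.40 ± 0.31 SE from LV. The 2 kept genes that carry the family's name without being channels, the non-coding RNA Kcnq1ot1 and Kcnrg, did not pass, and Kcnq1ot1 differed by 0.09 ± 0.08 SE from LV.

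Between septum and LV, 0 of the 51 Kcn genes passed with limma, as did 0% of all genes (0 of 14646). At an unadjusted p below 0.05 there were 3, Kcnd2, Kcnma1 and Kcne1. Analysis of variance followed by Tukey's test called 0, and the fits with the slide as a block, with a random block for the replicate number, and with a trended, robust spread each called 1, which was Kcnd2. Septum arrays were all above LV arrays in 4 genes (7.84%, background 3.62%) and all below in 3 (5.88%, background 3.77%).

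Genes outside the family that act with these channels were listed beside it. Of 17 such partners, which include the sulphonylurea receptors, scaffold proteins and regulators of channel genes, 15 were kept and 1 passed. This was Irx5, a homeobox gene known to repress Kcnd2 in the mouse ventricle. Over all genes 4.98% passed in RV against LV and 2.70% in RV against septum. Irx5 lay at -2.01, -2.05, -2.45 and -1.97 in RV, at -1.44, -1.58 and -1.29 in LV and at -1.34, -1.17 and -0.99 in septum. It was lower in RV than in LV (-0.68 ± 0.14 SE, adjusted p = 0.03) and than in septum (-0.95, adjusted p = 0.0126). Its region means ran RV, LV, septum from low to high, the reverse of Kcnd2, with LV and septum apart by 0.27, which did not pass. Its relative Irx3 differed from LV by -0.37 ± 0.13 SE (adjusted p = 0.164). The part of either gene in the values of Kcnd2 was not tested.

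Of the 47 Kcn genes that were not kept, 24 had no probe well above background on any array, 13 had one on 1 to 3 arrays and 10 on 4 to 7 arrays. They include Kcna4, the Kv1.4 pore of slow transient outward current, with 1 array, and Kcne3 with 6. For them no regional comparison was made. Of the 51 kept genes, 44 were well above background on all 10 arrays, and 7 were below that mark on some array.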

How the data were processed

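Total RNA from 4 RV, 3 LV and 3 septum pieces of C57BL/6N hearts was measured on SurePrint G3 mouse arrays of Agilent, and groups and replicate numbers come from the sample titles. The authors deposited, per array, the intensity of each spot from Agilent Feature Extraction (version 11.5.1.1 in the submitters' processing notes), already background-subtracted and with no scaling between arrays. They also deposited a table of log2 values made with GeneSpring, which lay within 0.05 of the values computed here for 100% of probes.

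Control spots were dropped, as were 56 to 128 spots per array with an outlier flag. The log2 of the processed signal was averaged over the spots of a probe, and each array's 75th percentile was subtracted. A probe was kept if some region had it well above background on all of its arrays (30234 of 56605). Between 53.7% and 64.0% of the 59305 non-control spots were well above background on an array, and 0 were saturated. The number of arrays limits the precision. Probes were named through RefSeq accessions and a gene table of GRCm38.p6 (32989 probes), promoter windows come from RefSeq on that build, and no coordinate of the arrays' own design was used. The brightest kept probe stood for a gene. For 1 kept gene, which did not pass, values are not reported here and it is left out of the figures.

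Regions were compared with limma 3.58.1 in R 4.3.3 (lmFit and eBayes on all 10 arrays, no covariate, 2.46 prior degrees of freedom), two-sided, with Benjamini-Hochberg adjustment over all kept probes and calls at an adjusted p below 0.05. The same adjustment over probes was applied to analysis of variance and Tukey's test, for which the methods name none, so that alternative is stricter than theirs. The script was tested on simulated data. A bound sets the brighter region's mean against, per dim array, the higher of the probe's own level and the lowest level well above background there. A summed level is the log2 of the summed signals of a list's kept genes.

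Same-numbered arrays of different regions deviated together: all 9 such pairs correlated between 0.36 and 0.64 in their deviations from the region means. Pairs of other numbers on the same slide correlated between 0.09 and 0.58 (8 pairs) and those on different slides between -0.56 and -0.21 (16 pairs), so slide and number are not separated by this check. The methods divide each heart into these regions, and no source ties a number to 1 heart. Numbers 1 and 2 share slide 1 and number 3 lies on slide 2, and RV replicate 4 has no partner of its number and adds nothing to the block fit. RV replicate 4 correlated with LV and septum replicate 3 at 0.57 and 0.58, and RV replicate 3 at 0.43 and 0.44. Which RV array of slide 2 goes with number 3 is therefore not settled by these values. Beside the result, values of that block are given where a call changed.

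The members, lists, rule for named genes and alternatives were chosen with earlier results of these data known. The rule names called Kcn genes, kept repolarisation genes, the 3 largest increases and decreases per pair of regions, genes well above background in all arrays of 1 region and none of another, called partners and the brightest probe of each class. Tried as alternatives were scaling by the median, scaling on probes detected on all 10 arrays, quantile normalization, normexp with an offset of 50 (on median signal and median background, as the files lack the mean signal), the authors' table, no filter, a filter on all 3 regions, the mean of a gene's probes, slide and replicate blocks, single slides, the methods' analysis of variance followed by Tukey's test, a trended robust spread, and leaving out each array.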

Additional observations from a re-analysis of the deposited data

Results flagged for a closer look

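Kcnj3, the GIRK1 gene, had 1 RV array far from the other 3. RV replicate 3 lay at -0.18, while replicates 1, 2 and 4 lay at 0.38, 0.30 and 0.33. The gap to the nearest array took up 0.861 of the range of the group, above Dixon's critical value for 4 samples. 33 Kcn genes were examined in this way and 1 passed, where chance flags about 1 in 20 groups. Kcnj3 was not called in any comparison, and its cause was not tested.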

How the results depend on the processing

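Of the 10 called differences of the 5 genes, all kept their direction under the 15 alternatives and the 10 fits that left out 1 array. For fits on fewer arrays this was fixed in advance, as no RV array of these genes overlapped an LV or septum array. The number of Kcn genes called was 5 over the 3 regions, 5 in RV against LV, 5 in RV against septum and 0 between septum and LV. Scaling by the median gave 3 over the 3 regions and 2 against septum, and no filter gave 2, 3 (RV against LV) and 2. With the slide as a block the counts were 10, 13 and 10, and 1 between septum and LV; with a random block for replicate number they were 14, 15 and 10, and 1. Within slide 1 the counts were 2, 2 and 2, and within slide 2 they were 1, 0 and 1, on fewer arrays. Analysis of variance, with the adjustment over probes added here, gave 6 over the 3 regions, with Kcnn2 in addition. Tukey's test after it gave 3 in RV against LV and 1 against septum. Kcnip3 was lost in both comparisons with median scaling, no filter and Tukey's test. The same alternatives lost Kcnk3 and Kcnt2 against septum. No filter and Tukey's test lost Kcnk3 against LV, and Tukey's test lost Kcnj4 against septum. The trended, robust spread gave 6 in RV against LV, with Kcnn2 in addition, and 1 between septum and LV. The cause of these shifts was not tested, apart from the fewer arrays within a slide.

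With the replicate number as a block, 12 Kcn genes were called in RV against LV, 9 in RV against septum, 6 over the 3 regions (Kcnj11 in addition) and 0 between septum and LV. The added genes were Kcna5, Kcnab1, Kcng2, Kcnj11, Kcnj12, Kcnn1 and Kcnn2 against LV and Kcnj5, Kcnj11, Kcnk2 and Kcnk13 against septum, and the block changed no other call. The random block called Kcne1, Kcnip2, Kcnk6 and Kcnn4 against LV and Kcna6, Kcnab1 and Kcnn2 against septum, which the fixed block did not. It did not call Kcng2 against LV or Kcnj11 and Kcnk13 against septum, which the fixed block called. Over all genes the fixed block called 2615 in RV against LV, 1274 in RV against septum and 1603 over the 3 regions, where 729, 395 and 537 were called without it, and the random block called 3295, 1868 and 2595.

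Leaving out 1 array at a time gave 4 to 5 called genes over the 3 regions, 3 to 5 in RV against LV, 2 to 5 in RV against septum and 0 between septum and LV. The lowest count against LV, 3, came without LV replicate 2. Against septum it was 2 without RV replicate 1 or 4 or septum replicate 2 or 3, and 3 without RV replicate 2 or 3 or LV replicate 2. Kcnd2 and Kcnj4 were called in each of these fits in both comparisons.

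Of the 143 differences of kept Kcn genes that were not called, 65 changed sign in at least 1 alternative or with 1 array left out, and 5 of these were over 0.3 in size as reported. Among those the text gives, Kcnk6 in RV against LV was -0.049 and Kcnq1ot1 -0.088 as the mean of a gene's probes, Kcnh2 in RV against LV was -0.011 within slide 1, and Kcnd3 in RV against septum was -0.020 with normexp. With 1 array left out, Kcnd3 in RV against septum ran from -0.042 to 0.044, Kcnh2 in RV against LV from -0.16 to 0.18 and Kcnj3 in RV against septum from -0.21 to 0.015. Kcnma1 in RV against septum was 0.31 with no filter, where a brighter probe stood for it in place of the one at -1.19. The dim probes of Kcnj4 and Kcnt2 gave smaller differences with normexp. Signal over background limits the 7 genes that were not well above background on every array. With 3 or 4 arrays a region, differences larger than their standard errors were also left unresolved, such as 1.19 ± 0.33 SE for Kcnab1 in RV against LV.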
